A study of Mus musculus with 2 samples.

Results

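The 31 genes described here encode the enzymes and regulators of cholesterol and fatty acid synthesis: 19 genes of the sterol branch, from Acat2 to Dhcr7 with the regulators Srebf2 and Insig1, and 12 genes of the fatty acid branch, from the regulator Srebf1 to the triglyceride enzymes Dgat1 and Dgat2. They were picked from the tables by gene name, from a list drawn up with earlier results of these data known, and all 31 had reads among the 18179 annotated genes with at least 1 read. The data are 2 long-read RNA libraries of adrenal gland, labelled biological replicates 1 and 2 of 1 group: females of the strain B6CASTF1/J, a first-generation cross of C57BL/6J and CAST, at 10 days of age. The labels name no treatment, second genotype or second age. They name animal 03 in the description of both libraries but animals 03 and 04 in those of the tissue pieces, under 1 donor identifier, so the samples may share an animal. The exact binomial and Fisher's exact tests below compare the reads of these 2 libraries and measure counting error, not a spread between animals. Levels are the reads of a gene scaled to a common library size (CPM) without ERCC spike-ins, from 593165 and 772154 reads. For a gene with 0 reads the limit (3 counts) was 5.06 CPM in the first and 3.89 CPM in the second. Intervals are exact 95% intervals and cover counting error only.

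Cholesterol is built from acetyl units through mevalonate, farnesyl diphosphate, squalene and lanosterol, and fatty acids from the same acetyl units through malonyl groups, which fatty acid synthase joins into palmitate. In both branches the genes are known targets of the sterol regulatory element binding proteins: SREBP2, from Srebf2, acts mostly on the sterol branch and SREBP1, from Srebf1, mostly on the fatty acid branch, and Insig1 holds both in the endoplasmic reticulum while sterols are plentiful. In the adrenal cortex cholesterol is the starting material of all steroid hormones and is stored as esters, and the fat around and within the gland makes fatty acids and triglycerides.

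The labelled tissue was checked against its markers. All 11 adrenal cortex markers and all 10 chromaffin markers had reads in both libraries, with sums of 17803 and 22229 CPM for cortex and 4967 and 5505 CPM for chromaffin cells in replicates 1 and 2. Markers of other tissues were present as well. The 9 adipose markers, all with reads in each library, summed to 15191 and 19720 CPM, with Ucp1, the uncoupling protein of brown fat, at 2192 and 3018 CPM, the 8 liver markers to 8099 and 1304 CPM, and the 8 skeletal muscle markers to 10439 and 3678 CPM. All 10 kidney markers were at 0 reads in replicate 1 and summed to 694 CPM in replicate 2. Adipose tissue, liver and muscle also express genes of both synthesis branches, and in whole tissue fewer cells of a type and less RNA per cell cannot be told apart.

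The fatty acid branch had more reads than the sterol branch in both libraries. The sterol branch had 720 reads (1214 CPM) in replicate 1 and 955 reads (1237 CPM) in replicate 2, and the fatty acid branch 2484 reads (4188 CPM) and 3620 reads (4688 CPM). The branch sums were 1225 ± 16.2 CPM and 4438 ± 354 CPM (SD, n = 2). The ratio of sterol to fatty acid reads was 0.290 (0.266 to 0.315) in replicate 1 and 0.264 (0.245 to 0.283) in replicate 2, a mean of 0.277 ± 0.0184, and it did not differ between the libraries by more than counting error (two-sided Fisher's exact test, p = 0.0928). With reads divided by transcript length, in kilobases, the ratio was 0.219 ± 0.0324 over the 29 members with a read on an annotated transcript. Each long read was counted once whatever the length of its transcript. Levels per length are therefore a second scale beside CPM, not a correction of it.

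Reads in each branch were concentrated in a few genes. Thrsp, Dgat2 and Acly took 71.9% of the fatty acid branch reads in replicate 1 and 79.2% in replicate 2. In the sterol branch Hmgcs1, Acat2, Insig1 and Dhcr7 took 65.3% and 66.5% of reads. Hmgcs1 and Thrsp were the most read genes of the branches. Without them the ratio of sterol to fatty acid reads was 0.278 in replicate 1 and 0.309 in replicate 2. The ratio of the median CPM of the branches was 0.138 and 0.228. Without Thrsp, Dgat2 and Acly the ratio of reads was 1.03 in replicate 1 and 1.27 in replicate 2, so the sterol branch then had more reads. These 3 genes were taken from the fatty acid branch alone, after seeing the data. Per length, the median level was 13.1 CPM per kilobase over 18 sterol genes and 39.5 CPM per kilobase over 11 fatty acid genes, beside 13.6 CPM per kilobase over all 10083 tested genes with a length. Levels over 50 CPM per kilobase were found in 3 of the 18 sterol genes and 5 of the 11 fatty acid genes, beside 19.5% of all those genes. The adipose markers given above summed to more than the whole fatty acid branch in each library, and their part in its level was not tested.

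**Figure D1:**
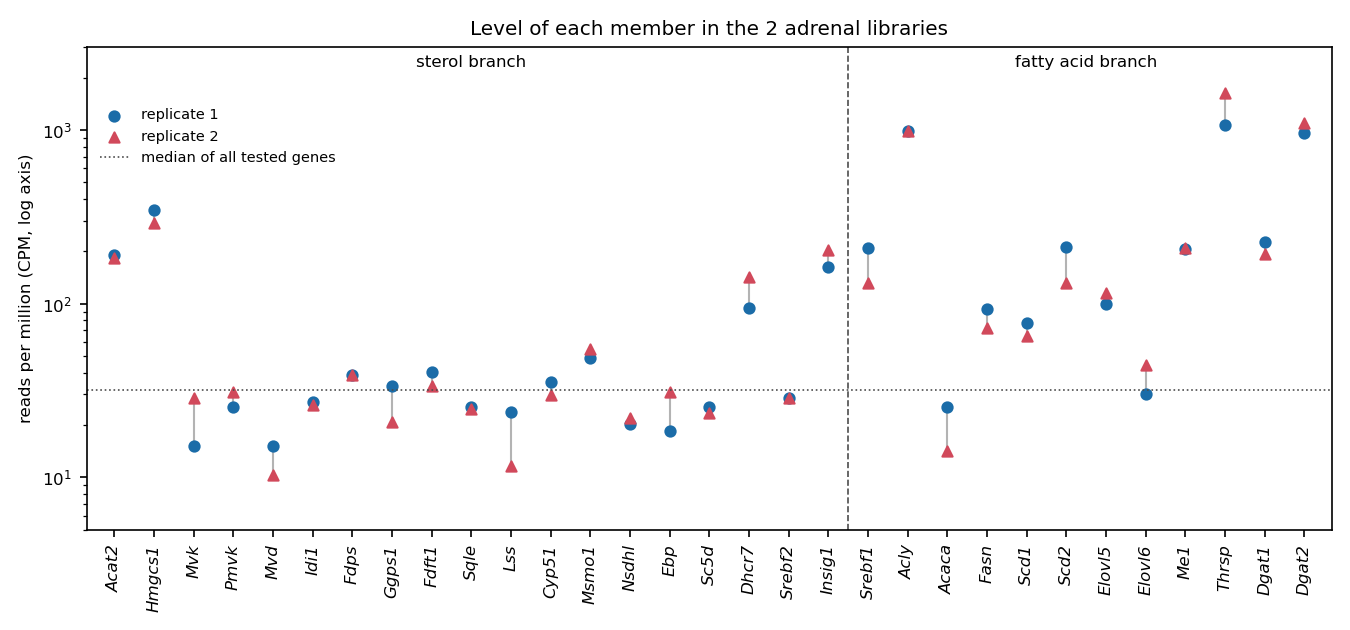
Level of the 31 genes in pathway order (x axis) in CPM on a log axis (y axis), with circles for replicate 1 and triangles for replicate 2 and a grey line joining them; the dotted line is the median of all tested genes, 31.6 CPM. Thrsp, Dgat2 and Acly stand highest, 4 sterol genes lie over 100 CPM on average and most others of that branch between 10 and 60 CPM.

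The first enzymes of the sterol branch were among its most read genes. Acat2, which here is the cytosolic thiolase that joins 2 acetyl-CoA molecules (ENSMUSG00000023832.14, chromosome 17, 12942890 to 12960747), had 113 reads in replicate 1 and 141 in replicate 2, or 190.5 and 183 CPM. Hmgcs1, the cytosolic HMG-CoA synthase (ENSMUSG00000093930.2, chromosome 13, 119690379 to 119708260), had 205 and 226 reads, or 346 and 293 CPM. Per length these were the highest levels among the 18 sterol genes with a length, 98.4 ± 11.5 CPM per kilobase for Hmgcs1 and 82.9 ± 2.48 for Acat2, and their values in the 2 libraries did not overlap.

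The promoter of Hmgcs1 is shown because, of the 24 genes with a promoter window, it alone matched TCACNCCAC on either strand. This is a core of the sterol regulatory element. Other spellings of the element were not searched, so the other windows are not shown to lack it. The 250 bases before the start of Hmgcs1 (RefSeq, GRCm38.p6, chr13:119690101-119690350, plus strand) follow, with matches to TCACNCCAC and to CCAAT, the NF-Y box, in capitals on either strand.
Hmgcs1 promoter: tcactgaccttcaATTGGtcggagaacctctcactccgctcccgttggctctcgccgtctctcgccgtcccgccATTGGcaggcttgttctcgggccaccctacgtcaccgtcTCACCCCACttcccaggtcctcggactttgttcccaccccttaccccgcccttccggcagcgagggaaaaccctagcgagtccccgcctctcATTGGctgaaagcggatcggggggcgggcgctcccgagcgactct
The sterol core stood 137 bases before the start site and the 3 CCAAT boxes 45, 176 and 237 bases before it.

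RefSeq promoter windows were found for 24 of the 31 genes, 16 sterol and 8 fatty acid, in 30 windows, since some genes have several. Promoters of Dgat1, Dgat2, Fdft1, Fdps, Scd1, Scd2 and Sqle were not analysed here. TCACNCCAC was present in 1 of 19 sterol windows, none of 11 fatty acid windows and 1.05% of all 32851 windows of the same length. CCAAT was present in 15 of 19 sterol windows (78.9%), 6 of 11 fatty acid windows (54.5%) and 33.8% of all windows. GGGCGG, the letters of the Sp1 box, was present in 15 of 19 sterol windows, 4 of 11 fatty acid windows (36.4%) and 32.7% of all windows. CACGTG, the E-box, was present in the windows of Dhcr7, Insig1, Sc5d and Elovl5, in 1 window each, and in 6.02% of all windows. No match of one motif overlapped a match of another in the members. These matches are descriptions of the reference sequence of C57BL/6J, 1 parent of the cross, and say nothing of binding.

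The genes in the middle of the sterol branch were low. Mvk, mevalonate kinase, had 15.2 and 28.5 CPM in replicates 1 and 2, Pmvk, phosphomevalonate kinase, 25.3 and 31.1 CPM, and Mvd, mevalonate diphosphate decarboxylase, 15.2 and 10.4 CPM. Idi1, which makes the isopentenyl isomer, had 27.0 and 25.9 CPM. Fdps, farnesyl diphosphate synthase, had 38.8 and 38.9 CPM, and Ggps1, which extends its product to geranylgeranyl diphosphate, 33.7 and 20.7 CPM. These 6 genes rest on 8 to 30 reads per library, and none differed between the libraries by more than counting error.

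The genes that make squalene and close it to lanosterol had similar levels. Fdft1, squalene synthase, had 40.5 and 33.7 CPM in replicates 1 and 2. Sqle, squalene epoxidase, had 25.3 and 24.6 CPM, and Lss, lanosterol synthase, 23.6 and 11.7 CPM from 14 and 9 reads. Per length, Lss was the lowest of the 29 genes with a length, 3.78 ± 1.81 CPM per kilobase.

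From lanosterol to cholesterol, the enzymes Cyp51 (C14 demethylase), Msmo1 (C4 methyl oxidase), Nsdhl (C4 decarboxylase), Ebp (sterol isomerase) and Sc5d (C5 desaturase) lay between 18.5 and 54.4 CPM in both libraries. Msmo1 had 48.9 and 54.4 CPM in replicates 1 and 2, Cyp51 35.4 and 29.8 CPM, Nsdhl 20.2 and 22.0 CPM, Ebp 18.5 and 31.1 CPM, and Sc5d 25.3 and 23.3 CPM. Dhcr7, which reduces 7-dehydrocholesterol to cholesterol in the last step, had 56 reads in replicate 1 and 110 in replicate 2, or 94.4 and 142 CPM. Replicate 2 was 1.51-fold higher (1.08 to 2.12), with an adjusted p of 0.133 by the exact binomial test over all genes.

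Among the regulators of the branch, Srebf2 had 28.7 and 28.5 CPM in replicates 1 and 2. Insig1 (ENSMUSG00000045294.11, chromosome 5, 28071363 to 28078662), itself a known SREBP target, had 96 and 158 reads, or 162 and 205 CPM, and per length 67.9 ± 11.2 CPM per kilobase against 14.4 ± 0.0600 for Srebf2. Insig1 was higher than Srebf2 in both libraries.

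In the fatty acid branch, Srebf1 (ENSMUSG00000020538.15, chromosome 11, 60199089 to 60222581) had 124 reads in replicate 1 and 101 in replicate 2, or 209 and 131 CPM. The genes for the supply of acetyl-CoA and of reducing power had high RNA levels. Acly, ATP citrate lyase, which splits citrate into acetyl-CoA in the cytosol (ENSMUSG00000020917.17, chromosome 11, 100476353 to 100528000), had 584 and 764 reads, or 984.5 and 989 CPM. Me1, the cytosolic malic enzyme that yields NADPH, had 206 and 209 CPM.

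The steps that build palmitate had fewer reads. Acaca, acetyl-CoA carboxylase 1, had 25.3 and 14.2 CPM in replicates 1 and 2 from 15 and 11 reads, and Fasn, fatty acid synthase, 92.7 and 72.5 CPM. Per length, Fasn with 8.22 ± 1.42 CPM per kilobase lay under Acly with 225 ± 0.787 in both libraries. Few or none of the reads of either gene lay on an annotated transcript, as given below.

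The enzymes that desaturate and lengthen fatty acids were spread widely. The stearoyl-CoA desaturases Scd1 and Scd2, which place the first double bond, had 77.6 and 64.8 CPM and 211 and 131 CPM in replicates 1 and 2. They are close paralogs in 1 cluster on chromosome 19, and reads of one could have been counted for the other. Elovl5, the elongase of polyunsaturated chains, had 99.5 and 115 CPM, and Elovl6, which takes palmitate to stearate, 30.3 and 44.0 CPM.

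Thrsp and the enzymes of triglyceride synthesis led the branch. Thrsp, the thyroid hormone responsive Spot 14 protein, which is tied to lipogenesis in fat and liver (ENSMUSG00000035686.8, chromosome 7, 97412938 to 97417730), had 632 reads in replicate 1 and 1263 in replicate 2, or 1065 and 1636 CPM. Dgat2, the diacylglycerol acyltransferase that makes triglycerides from new fatty acids (ENSMUSG00000030747.5, chromosome 7, 99153658 to 99182719), had 570 and 841 reads, or 961 and 1089 CPM. Dgat1, an unrelated enzyme of the same reaction, had 226 and 193 CPM. Per length the order was Thrsp with 1058 ± 316 CPM per kilobase, Dgat2 with 453 ± 40.1, Acly with 225 ± 0.787 and Dgat1 with 111 ± 12.3, with no overlap of neighbours in the 2 libraries.

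The Thrsp promoter is shown because this gene had the highest level of all 31 in each library. Its 250 bases before the start (RefSeq, GRCm38.p6, chr7:97417551-97417800, minus strand) hold a CCAAT box on each strand, in capitals, 52 and 79 bases before the start.
Thrsp promoter: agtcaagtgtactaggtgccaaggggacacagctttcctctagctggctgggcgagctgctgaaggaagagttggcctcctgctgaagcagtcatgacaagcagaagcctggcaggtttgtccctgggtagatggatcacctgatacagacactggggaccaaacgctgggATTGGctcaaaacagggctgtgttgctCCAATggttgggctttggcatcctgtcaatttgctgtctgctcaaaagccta

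In the order per length of all 29 genes with a length, 17 of 28 neighbouring pairs overlapped between the libraries, so much of that order was not resolved. In CPM the leading genes overlapped as well. The lowest value of Thrsp (1065 CPM, replicate 1) lay under the highest of Dgat2 (1089 CPM, replicate 2), though Thrsp was above Dgat2 within each library. The lowest value of Dgat2 (961 CPM, replicate 1) lay under the highest of Acly (989 CPM, replicate 2). The median of the mean CPM over all 10567 tested genes was 31.6 CPM, and 18.0% of those genes were over 100 CPM, beside 4 of 19 sterol and 8 of 12 fatty acid genes.

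None of the 31 genes was called between the libraries. Reads were set against the library totals by an exact binomial test (two-sided), adjusted by Benjamini-Hochberg over all 10567 genes with at least 10 reads summed, and a call needed an adjusted p under 0.05 and a 2-fold ratio. This rule called 3.46% of all tested genes, 366 in number, of which 273 were higher in replicate 1. At an adjusted p under 0.05 with no fold minimum, 6.79% of all tested genes and 3 of the 31 passed: Thrsp, Scd2 and Srebf1. At an unadjusted p under 0.05, 16.0% of all tested genes and 5 of the 31 passed, the other 2 being Dhcr7 and Dgat2.

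Thrsp was 1.54-fold higher in replicate 2 (1.39 to 1.69, adjusted p = 3.91e-17 by the exact binomial test). The adipose markers summed to a level 1.30-fold higher in replicate 2 and the cortex markers to one 1.25-fold higher; their part in the ratio of Thrsp was not tested. Scd2 was 1.61-fold higher in replicate 1 (1.23 to 2.12, adjusted p = 0.00969 by the exact binomial test) and Srebf1 1.60-fold higher in replicate 1 (1.22 to 2.10, adjusted p = 0.0118 by the same exact test). The liver markers summed to a level 6.21-fold higher in replicate 1, where all 8 were higher. The muscle markers summed to one 2.84-fold higher in replicate 1. Of these 8 markers, 6 were higher in replicate 1, of which 4 were called, and 2 in replicate 2, of which 1 was called. The part of both lists in the ratios of Scd2 and Srebf1 was likewise not tested. On reads of annotated transcripts alone the log2 ratio of replicate 2 over replicate 1 was -0.69 for Scd2 (adjusted p = 0.100 by the exact binomial test) and -0.44 for Srebf1 (adjusted p = 0.927 by the same exact test), beside -0.69 and -0.68 on all reads. On spliced reads alone it was -0.51 for Scd2 (adjusted p = 0.264, exact binomial test) and -0.80 for Srebf1 (adjusted p = 0.00196, exact binomial test). With edgeR's negative binomial exact test, whose spread (biological coefficient of variation 0.251) was estimated from the same 2 libraries that it compares, 1 to each side, none of the 31 and 446 of all tested genes had an unadjusted p under 0.05, and 132 genes were called. The median log2 ratio of replicate 2 over replicate 1 was -0.05 over the sterol branch, -0.11 over the fatty acid branch and -0.04 over all tested genes.

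**Figure D2:**
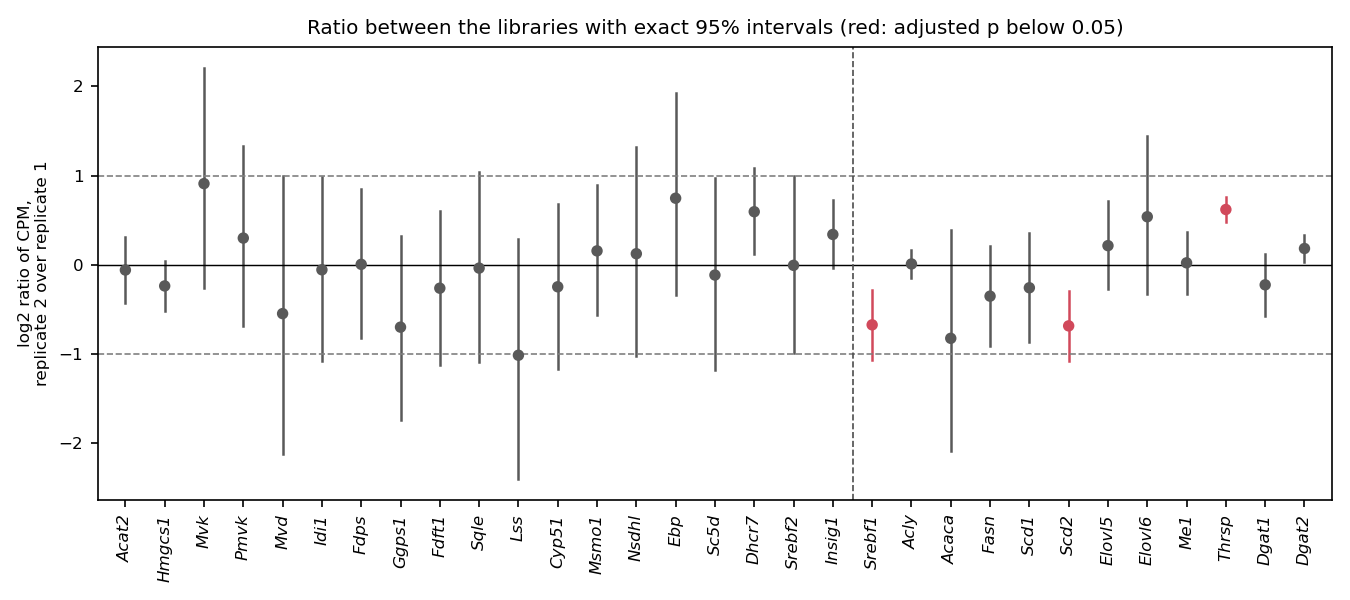
Log2 ratio of CPM in replicate 2 over replicate 1 (y axis) for the 31 genes in pathway order (x axis), with exact 95% intervals as vertical lines; dashed horizontal lines mark a 2-fold ratio, and red marks an adjusted p under 0.05. Only Srebf1, Scd2 and Thrsp are red, and all 3 points lie inside the 2-fold lines.

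Other genes of the pathways were taken from lists chosen by role, and none was called, beside 3.46% of all tested genes. Of 18 further sterol genes 15 had enough reads to be tested and 0 were called. At any fold 0 of the 15 passed, beside 6.79% of all tested genes. Among the highest were Fnta, a farnesyltransferase subunit (128 and 136 CPM), Mbtps1, the protease that first cuts the SREBPs (126 and 110 CPM), Scap, their escort (104.5 and 93.2 CPM), and Insig2 (77.6 and 77.7 CPM). Of 33 further fatty acid genes 29 were tested and 0 were called. The 5 highest were Agpat2, an acyltransferase of the triglyceride pathway (919 and 954 CPM), Fads2, a desaturase of polyunsaturated chains (684 and 763 CPM), Acsl1, which activates fatty acids (580 and 460 CPM), Tecr, the last enzyme of chain elongation (361 and 418 CPM), and Mecr, of mitochondrial fatty acid synthesis (170 and 227 CPM). Without a fold minimum 2 of the 29 passed, beside the same 6.79% of all tested genes. They were Acsl1 (adjusted p = 0.0386 by the exact binomial test) and Fads1, named after its value was seen (adjusted p = 0.0131 by the same exact test). Both were higher in replicate 1. The median level was 19.2 CPM over the further sterol genes and 69.8 CPM over the further fatty acid genes, beside 31.6 CPM over all tested genes. Idi2, Scd3 and Scd4 had 0 reads in both libraries, which allows up to 5.06 and 3.89 CPM.

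The deposited tables place each read on a transcript model with a class: an annotated transcript, an incomplete splice match (a model whose introns are part of an annotated transcript), an unannotated combination of annotated splice sites, a model with an unannotated splice site, or genomic. Annotated transcripts took 72.2% (68.8 to 75.5) and 73.9% (71.0 to 76.7) of the sterol branch reads in replicates 1 and 2 and 68.0% (66.1 to 69.8) and 71.4% (69.9 to 72.8) of the fatty acid branch reads. Over all annotated genes the shares were 71.0% and 75.6%. The sterol branch was 3.40 ± 1.17 points above the fatty acid branch, but without the most read gene of each (Hmgcs1 and Thrsp) the difference was -0.0779 ± 3.97 points, and among spliced reads -2.84 ± 3.63 points. Among genes with 10 or more reads per library, the median was 79.5% and 85.9% over 16 sterol genes, 62.6% and 71.0% over 12 fatty acid genes, and 72.5% and 77.3% over 7310 genes.

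**Figure D3:**
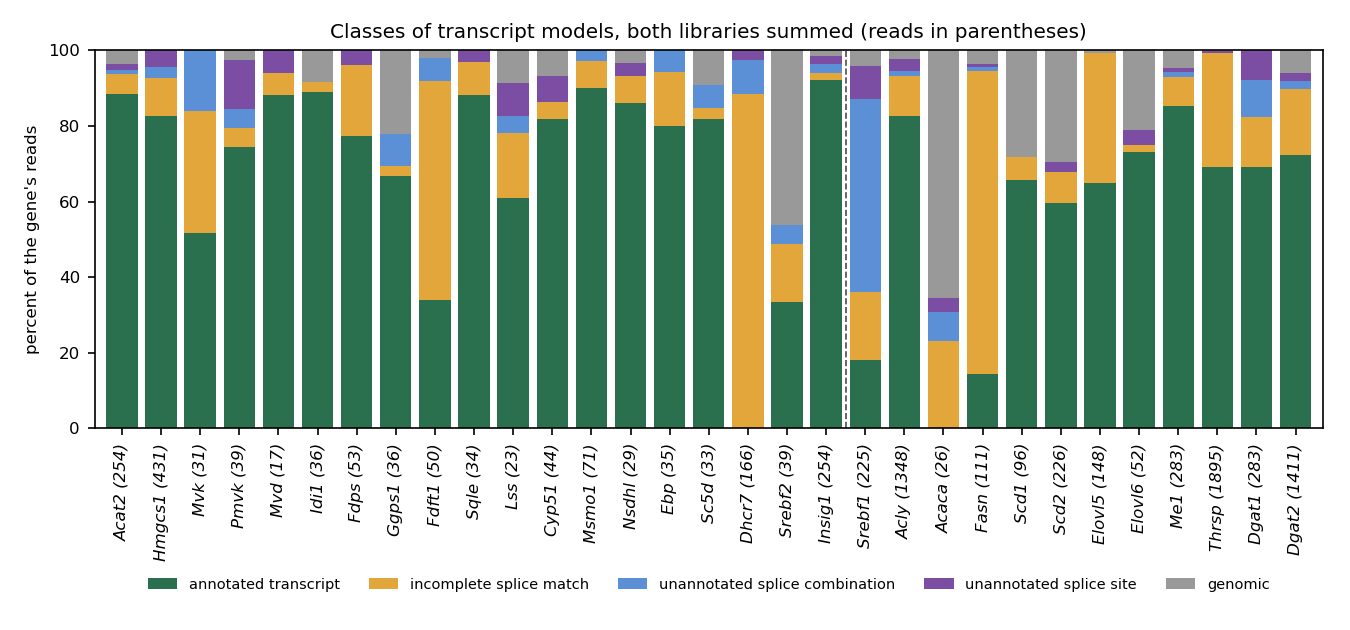
Share of each gene's reads by class of transcript model (y axis, percent, both libraries summed) for the 31 genes in pathway order (x axis), with the number of reads in parentheses. Dhcr7 and Acaca have no annotated part, Fasn and Fdft1 are mostly incomplete splice matches, and unannotated splice combinations are the largest part of Srebf1.

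Several genes departed from this pattern. Fasn, whose most read annotated transcript is 10050 bases long, had 16.4% and 12.5% of its reads on annotated transcripts and 41 of 55 and 48 of 56 reads on incomplete splice matches. The most read of these, with 21 exons, had 9 and 5 reads. Acaca had 0 of 15 and 0 of 11 reads on an annotated transcript, which allows up to 20.0% and 27.3%, and 8 and 9 of them were genomic. Srebf2 had 6 of 17 and 12 of 22 genomic reads. Fdft1, which overlaps Ctsb on the opposite strand, had 13 of 24 and 10 of 26 reads on a 7-exon model that begins at position 63165036 on chromosome 14. The first splice site of 13 of 23 and 12 of 25 spliced reads of Fdft1 was that of an annotated first exon, which ends at 63164532. It is also the end of exon 2 of Fdft1-201 (63164532 to 63164629), so the splice site alone does not tell these exons apart. The splice site of the first exon of Fdft1-201 was the first in 8 and 9 reads. How strand was assigned to reads is not given in the sources used here, and reads where 2 genes overlap are uncertain; Mvd likewise overlaps Gm20388.

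Across 26 genes with a length and 10 or more reads per library, the annotated share and the transcript length had a Spearman rho of -0.290 and a Pearson r of -0.347 with log2 length, and over 7167 genes of these libraries the values were -0.413 and -0.361. Without Fasn rho was -0.201 and r was -0.123. These correlations are across genes that share the 2 libraries and are given as a description.

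**Figure D4:**
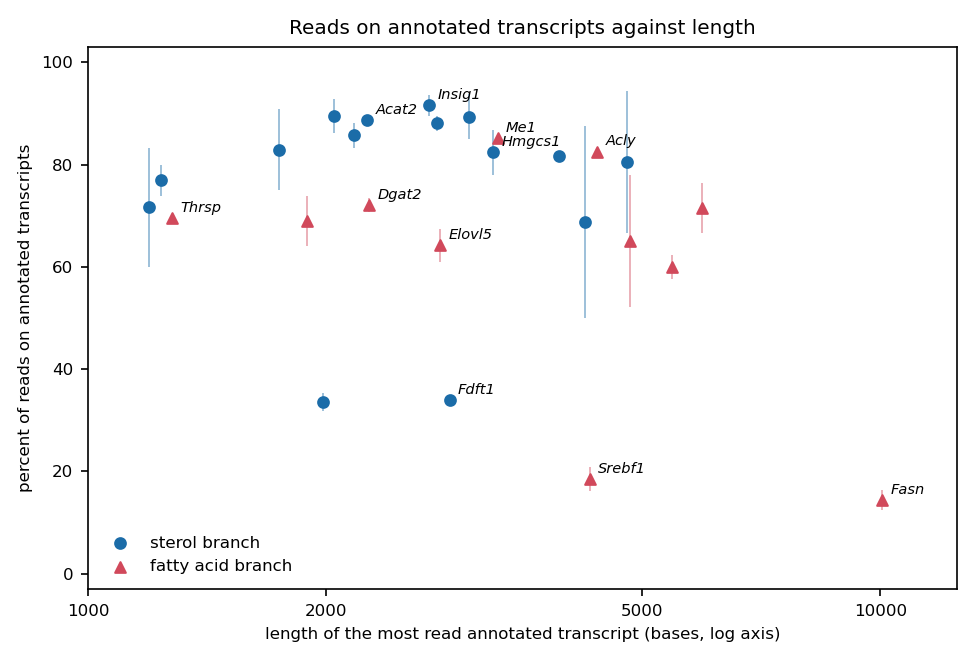
Percent of reads on annotated transcripts (y axis, mean of the libraries, with a line from one library's value to the other's) against the length of the most read annotated transcript in bases (x axis, log) for 26 genes; circles are sterol and triangles fatty acid genes. Fasn, the longest at 10050 bases, and Srebf1, Fdft1 and Srebf2 lie under 40%, and the other 22 genes lie above them, up to 91.6%.

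Dhcr7 (ENSMUSG00000058454.15, chromosome 7, 143823145 to 143848410) had no read on an annotated transcript. All 166 reads lay on other models, and the limit that 0 reads allow was 5.36% in replicate 1 and 2.73% in replicate 2. Of the 2162 genes with 50 or more reads per library 16, or 0.740%, had no read on an annotated transcript. An 8-exon incomplete splice match took 34 of 56 reads (60.7%, 46.8 to 73.5) and 67 of 110 reads (60.9%, 51.1 to 70.1). This model starts at position 143830234 in exon 2 of the 9 exons of Dhcr7-201. The end of that exon was the first splice site of 36 of 46 and 79 of 99 spliced reads. The same splice site ends the annotated first exon of Dhcr7-207, Dhcr7-208, Dhcr7-209 and Dhcr7-211. RefSeq lists a start 20 bases before the start of the model. The 250 bases before the RefSeq start (GRCm38.p6, chr7:143829964-143830213, plus strand) are shown because the most read Dhcr7 model began just after it. CCAAT boxes, on either strand, are in capitals.
Dhcr7 promoter: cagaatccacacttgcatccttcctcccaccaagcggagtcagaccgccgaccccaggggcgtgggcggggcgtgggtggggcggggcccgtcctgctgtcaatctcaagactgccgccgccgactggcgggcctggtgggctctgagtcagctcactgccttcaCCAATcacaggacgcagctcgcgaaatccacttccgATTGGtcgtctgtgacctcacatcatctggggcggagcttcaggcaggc
The CCAAT boxes stood 49 and 85 bases before the start. The other RefSeq windows of Dhcr7 lay at 143822917 to 143823166 and at 143823149 to 143823398 and held no CCAAT.

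Srebf1 makes SREBP1a and SREBP1c from 2 first exons, of which SREBP1c is known as the main form of lipid-making tissues and SREBP1a as the stronger activator. The 1a exon lies at 60220453 to 60220604 (first exon of Srebf1-201) and the 1c exon at 60210336 to 60210465 (first exon of Srebf1-207), both on chromosome 11, minus strand. Reads that began in the 1c exon numbered 60 in replicate 1 and 49 in replicate 2, and those that began in the 1a exon 29 and 24. The 1c share was 67.4% (56.7 to 77.0) and 67.1% (55.1 to 77.7), with a mean of 67.3 ± 0.207% (SD, n = 2). The intervals of the 1c share overlapped, while the CPM of the gene differed 1.60-fold between the libraries.

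The 250 bases before the RefSeq starts of these 2 forms (GRCm38.p6, minus strand) are shown for comparison, at chr11:60210472-60210721 for 1c and chr11:60220628-60220877 for 1a, with CCAAT boxes in capitals.
Srebf1 1c promoter: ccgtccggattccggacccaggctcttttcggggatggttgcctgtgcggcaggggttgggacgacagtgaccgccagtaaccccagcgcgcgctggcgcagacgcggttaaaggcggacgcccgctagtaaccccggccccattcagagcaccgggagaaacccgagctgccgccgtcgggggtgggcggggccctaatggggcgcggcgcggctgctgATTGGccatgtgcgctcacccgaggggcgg
Srebf1 1a promoter: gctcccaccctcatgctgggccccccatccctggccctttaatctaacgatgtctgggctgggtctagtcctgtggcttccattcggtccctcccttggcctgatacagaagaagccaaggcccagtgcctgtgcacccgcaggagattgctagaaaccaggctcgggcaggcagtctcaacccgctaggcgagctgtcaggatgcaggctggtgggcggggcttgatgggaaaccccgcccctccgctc
The 1c window held 1 CCAAT box, 30 bases before the start and on the opposite strand, and the 1a window none. Both held GGGCGG, at 6 and 65 bases before the 1c start and at 14 and 36 bases before the 1a start.

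The most read model of Srebf1 was not an annotated transcript. It had 19 exons, began in the 1c exon and joined annotated splice sites in an unannotated combination, and it took 46 of 124 reads (37.1%, 28.6 to 46.2) and 37 of 101 reads (36.6%, 27.3 to 46.8). A second 19-exon model of the same kind had 6 and 9 reads. Annotated transcripts took 16.1% and 20.8% of the reads of the gene, among the lowest shares of the 31. A 15-base difference between 2 donor sites of the gene (60206173 to 60206187) split reads further, with the shorter form in 11 of 105 reads (10.5%) and 10 of 83 reads (12.0%) that told them apart, with intervals that overlapped.

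Acly had 2 main forms that differ by a coding exon of 30 bases, exon 14 of the 29 of Acly-203 (chromosome 11, 100503160 to 100503189), which Acly-201 lacks. The exon is shown in capitals between the last 30 bases of the exon before and the first 30 bases of the exon after, from the GENCODE M21 transcripts, and the second line gives the joined form without it.
Acly-203: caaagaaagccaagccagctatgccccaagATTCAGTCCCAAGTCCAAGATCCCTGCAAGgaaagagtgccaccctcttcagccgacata
Acly-201: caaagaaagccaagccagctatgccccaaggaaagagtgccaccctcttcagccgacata
Of the reads that told the forms apart, 207 of 525 in replicate 1 (39.4%, 35.2 to 43.8) and 215 of 707 in replicate 2 (30.4%, 27.0 to 33.9) held the exon. The intervals did not overlap. The most read form, Acly-201, took 288 of 584 reads (49.3%, 45.2 to 53.5) in replicate 1 and 444 of 764 (58.1%, 54.5 to 61.6) in replicate 2, an 8.80-point difference (adjusted p = 0.0452 by Fisher's exact test).

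This was the only member that passed that test at any difference. Main transcripts were compared in 2162 genes, 13 of them members, with 50 or more reads per library, and a call was made at an adjusted p under 0.05 and 10 points. The rule called 1.80% of all genes compared and 0 of the 13 members, and with no minimum difference 3.65% and 1 of 13. At an unadjusted p under 0.05 Acly alone of the 13 passed.

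Hmgcs1 also had 2 forms, with and without a second exon of 59 bases ahead of the start codon (chromosome 13, 119694989 to 119695047, in an annotated transcript of 11 exons). It was held by 59 of 175 reads (33.7%, 26.8 to 41.2) in replicate 1 and 88 of 212 reads (41.5%, 34.8 to 48.5) in replicate 2, intervals that overlapped, with a mean of 37.6 ± 5.51% (SD, n = 2). Hmgcs1-201, which lacks it, took 55.6% and 52.7% of all reads of the gene. Acat2-201, Me1-201 and Insig1-201 were the main transcripts of their genes with 85.0 and 85.1%, 85.2 and 85.1%, and 89.6 and 93.7% of reads.

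**Figure D5:**
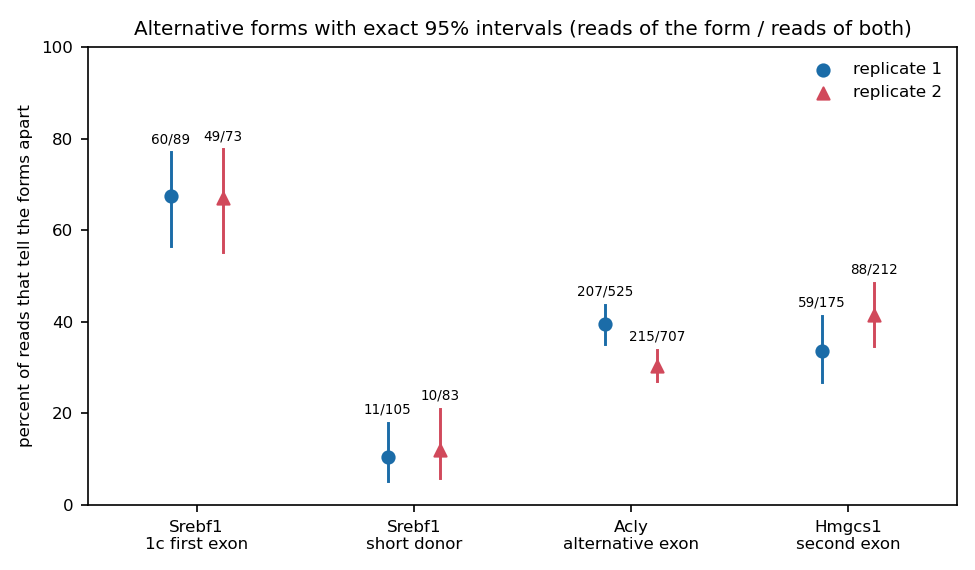
Percent of the reads that tell 2 forms apart (y axis) for the 1c first exon and the short donor of Srebf1, the alternative exon of Acly and the second exon of Hmgcs1 (x axis), with exact 95% intervals and read numbers; circles are replicate 1 and triangles replicate 2. Only the Acly intervals, 35.2 to 43.8% and 27.0 to 33.9%, do not overlap between the libraries.

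Spliced reads of Elovl6 mostly had the splice site of 1 of 2 annotated first exons as their first, which end at 129532495 and 129532768 on chromosome 3. The site at 129532495 had 7 and 16 reads and that at 129532768 had 6 and 10 in replicates 1 and 2. Where these reads began was not compared. Thrsp, a 2-exon gene, had 445 of 632 and 866 of 1263 reads on Thrsp-201 (70.4% and 68.6%), and 185 and 386 reads on incomplete splice matches. Dgat2-201 took 70.7% and 73.5% of Dgat2 reads, and a 7-exon incomplete splice match that begins at position 99170106 took 11.9% and 11.2%. The first splice site of 71 of 539 and 95 of 789 spliced Dgat2 reads was that of the annotated first exon of Dgat2-205. It is also the end of exon 2 of Dgat2-201 (99169698 to 99169826), so the splice site alone does not tell these exons apart. Dgat1-201 took 64.2% and 73.8% of Dgat1 reads, with intervals that overlapped.

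Unannotated spliced models with identical introns in both libraries were found in 13 of the 31 genes, 7 sterol and 6 fatty acid, in 34 models. The same was true of 35.8% of all 10567 tested genes. Among genes with 50 or more reads per library it was 10 of 13 members beside 62.4% of 2162 genes. At 3 or more reads per library 3 members remained, beside 9.33% of all tested genes: Srebf1 and Hmgcs1, whose 11-exon model had 3 and 8 reads, and Dgat2, with a 7-exon model of 6 and 8 reads, a 5-exon model of 3 and 5 reads and an 8-exon model of 4 and 4 reads, the last with an unannotated splice site.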

How the data were processed

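RNA of adrenal gland was read as long reads in 2 libraries of 1 group. The deposited tables hold whole-number counts of reads per transcript model, which the authors assigned with TALON against mm10 and GENCODE M21, per the file headers and the notes deposited with the files. The platform, aligner and software versions were not given in the sources used here. Since model identifiers differ between the libraries, unannotated models were matched by their introns. The tables list models with 1 or more reads.

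Counts were summed per gene. ERCC spike-in rows, 2.23% and 2.09% of reads, were left out of totals and tests; the Lexogen spike-ins were not analysed here. Library totals were 593165 and 772154 reads. With 1 sample of each replicate number, tests compare the reads of 2 libraries and cover counting error only: a two-sided exact binomial test for genes with at least 10 reads summed, with a pseudocount of 0.5 in log2 ratios, and Fisher's exact test for main transcripts in genes with 50 or more reads per library, each adjusted by Benjamini-Hochberg over all genes tested. Calls needed an adjusted p under 0.05 and a 2-fold ratio or 10 percentage points. Intervals are Clopper-Pearson 95% intervals. Lengths are those of the most read annotated transcript, also where annotated transcripts held few of the reads, as in Srebf1, Fasn, Srebf2 and Fdft1. Levels per length of such genes rest on a length that most of their reads do not show. Alternatives used edgeR 4.0.16 (negative binomial exact test, TMM) and DESeq2 1.42.0 (size factors) in R 4.3.3; the rest was computed with Python 3.11.15 and SciPy 1.17.1. The gene tests were run on simulated data drawn with counting error alone, so that check did not cover a spread between libraries. Promoter windows are RefSeq's for GRCm38.p6, the assembly that mm10 holds.

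The 31 genes were named, and of other pathway genes those called and the 5 with the highest mean CPM in each list, of which 1 is not reported here; markers were given by list. Members and lists were chosen with earlier results of these data known.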

Additional observations from a re-analysis of the deposited data

How the results depend on the processing

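The count of 0 of the 31 genes called between the libraries held with TMM factors, DESeq2 size factors, no minimum on reads, annotated models alone, spliced models alone, edgeR's negative binomial exact test and a binomial p by summed chance. It was 3 with no fold minimum. With the adrenal cortex marker reads as library totals, added after seeing the data, it was 1 (Scd2), and the median log2 ratio of all genes moved from -0.04 to -0.36. Over these settings the adjusted p ranged from 1.56e-05 to 1 for Srebf1, from 1.14e-05 to 1 for Scd2 and from 3.39e-19 to 1 for Thrsp. Over all genes the rule called 366, of which 74.6% were higher in replicate 1. The count was 717 with no fold minimum (46.9% higher in replicate 1), 238 with annotated models alone, 132 with edgeR and 633 with the cortex marker totals (91.2% higher in replicate 1). The ratio of sterol to fatty acid reads, 0.277, was 0.301 with spliced models alone, 0.219 per length, 0.183 as a ratio of median CPM and 1.15 without Thrsp, Dgat2 and Acly, and each library alone gave 0.264 to 0.290. The ratio in replicate 1 over that in replicate 2, 1.10 on all reads, turned to 0.812 without those 3 genes (p = 0.00396 by Fisher's exact test). They were taken from the fatty acid branch alone after seeing the data, so that p is not of a planned test. The ratio also turned to 0.899 without Hmgcs1 and Thrsp (p = 0.111 by Fisher's exact test) and to 0.607 as a ratio of median CPM. With annotated models alone, spliced models alone and per length it was 1.13, 1.06 and 1.23. The count of members with a different main transcript was 1 with no minimum difference (Acly). The annotated share of the sterol branch minus that of the fatty acid branch, 3.40 points, was 15.9 as medians over genes, -0.0779 without the most read gene of each branch and -2.84 with spliced models alone, and 2.57 to 4.23 in each library alone. The share itself was 82.7, 69.9 and 78.3% for the sterol branch in those settings (72.2 to 73.9% in each library alone), and 66.8% as a median and 81.1% with spliced models alone for the fatty acid branch (68.0 to 71.4%). Members with an unannotated spliced model in both libraries numbered 3 with at least 3 reads each and 21 with incomplete splice matches counted. What caused the changes between settings was not tested. Leaving out a library leaves no comparison between them. No paired analysis was possible because there is only 1 group. Genes with 8 to 30 reads per library set the limit of depth: for Lss, 2.02-fold higher in replicate 1, the interval was 0.816 to 5.30.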
